A study of Homo sapiens with 6 samples.

Results

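A set of human genes that make, convert or transport uridine diphosphate (UDP) sugars was examined in HCT-15 cells. They are UGP2, UGDH, UXS1, GALK1, GALT, SLC35A2, SLC35D1, SLC35D2 and SLC35D3. These 9 were chosen by function, with earlier results of these data known. They were found through the RefSeq transcript named in each probe set, and all 9 of the 9 listed genes were on the array. They account for 9 of 927 named genes and for 12 of 1259 probe sets. SLC35A2 has 4 probe sets and the other 8 genes have 1 each.

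UDP-sugars are the activated donors that glycosyltransferases use. In the cytosol UGP2 makes UDP-glucose and UGDH oxidises it to UDP-glucuronate. UXS1, an enzyme of the endoplasmic reticulum and Golgi membranes, decarboxylates UDP-glucuronate to UDP-xylose, the donor that starts glycosaminoglycan chains. The Leloir pathway brings in galactose: the kinase GALK1 makes galactose 1-phosphate, and GALT exchanges it with UDP-glucose to give UDP-galactose. Nucleotide sugar transporters of the SLC35 family carry the donors across the membranes of the Golgi apparatus and the endoplasmic reticulum in exchange for nucleoside monophosphates.

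The study compared 3 arrays of cells treated with 5-aza-2'-deoxycytidine with 3 arrays of untreated cells. HCT-15 is an established human colon cancer line, and every array came from that line with no other allele or agent named. 5-Aza-2'-deoxycytidine is a cytosine analogue that is incorporated into DNA and traps DNA methyltransferases. No source used here gives the dose or duration. The labels do not say that replicates were separate cultures, so the p-values cover only the spread among these arrays, which may be technical. The third untreated array is called treated in its title, but untreated in its source name and its treatment entry, and it was grouped by those. Values without it are given where a call is lost or a count moves by over 1.5 times, and for the count of members. Glycogene expression in cells with more sialyl Lewis x after the drug was the submitters' question.

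Values are log2 probe set values, and a change is the treated mean minus the untreated mean on that scale. A probe set was called where limma's test gave a Benjamini-Hochberg adjusted p under 0.05 over all 1259 probe sets. Array medians lay between 5.90 and 5.92 in treated cells and between 5.81 and 5.88 in untreated cells. Of all probe sets 34.8% were called, 18% higher and 16.8% lower in treated cells. Median centring of the arrays changed the share of calls that were higher to 38.8%, against 51.8% on the deposited values. Colon epithelial markers were measured for 3 genes (LGALS4, MUC13 and MUC2), with a mean level of 7.86 to 7.90 in treated cells and of 7.69 in each untreated array. The 4 leukocyte markers had mean levels of 4.70 to 4.82 in treated cells and 4.60 to 4.72 in untreated cells, and the 5 stromal and endothelial markers 3.43 to 3.48 in treated cells and 3.32 to 3.49 in untreated cells. Within these lists MUC13, CD33 and PECAM1 were called higher and LGALS4 and CD22 lower in treated cells, and their part in the results below was not tested.

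Of the 12 probe sets, 4 were called higher in treated cells (SLC35D3, UXS1, SLC35D2 and 1 of the 4 SLC35A2 sets), 2 were called lower (GALT and GALK1), and 6 were not called, against 18% of all probe sets called higher and 16.8% called lower. In 8 of the 12 the treated and untreated values did not overlap, against 46.1% of all probe sets. The median change of the 12 was 0.131, against -0.012 over all probe sets. SLC35A2 enters these counts with 4 sets. Counted by gene on the brightest set, 3 of the 9 were called higher (33.3%), 2 lower (22.2%) and 4 not, against the same shares of all probe sets. By gene, the groups did not overlap in 7 of the 9. SLC35D3 and UXS1 had the largest rises, 1.63-fold and 1.51-fold, and GALT the largest fall, to 61.9% of the untreated level. With a change of at least 1.5-fold also required, 3 of the 12 were called, against 13.4% of all probe sets. Without untreated replicate 1 the higher calls were 2, UXS1 and SLC35D3, against 4 with all arrays. Without untreated replicate 3 they were 3. In bulk RNA a change in every cell and a change in the share of cells that express a gene cannot be told apart.

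The sequences just before the transcription start are shown for the members with the largest rises and the largest fall, and for SLC35D1, whose change was nearest to 0, because the drug acts on the upkeep of methylation at CG dinucleotides. Each is the 250 bases before the RefSeq start (GRCh38.p14), read 5′ to 3′ on the strand of the gene, with every CG in capitals. SLC35D3 lies at chr6:136922051-136922300 (plus strand), UXS1 at chr2:106194302-106194551 (minus), GALT at chr9:34646425-34646674 (plus) and SLC35D1 at chr1:67054149-67054398 (minus).
SLC35D3: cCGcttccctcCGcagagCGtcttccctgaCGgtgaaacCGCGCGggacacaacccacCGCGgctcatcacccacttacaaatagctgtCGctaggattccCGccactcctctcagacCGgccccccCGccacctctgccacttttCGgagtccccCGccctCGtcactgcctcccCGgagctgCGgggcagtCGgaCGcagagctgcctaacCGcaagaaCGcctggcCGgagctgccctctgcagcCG
UXS1: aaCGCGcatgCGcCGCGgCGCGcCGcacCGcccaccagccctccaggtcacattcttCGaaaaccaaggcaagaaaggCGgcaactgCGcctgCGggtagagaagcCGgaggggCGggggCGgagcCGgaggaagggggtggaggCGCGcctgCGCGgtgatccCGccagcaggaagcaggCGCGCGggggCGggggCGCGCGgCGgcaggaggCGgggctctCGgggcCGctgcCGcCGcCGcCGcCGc
GALT: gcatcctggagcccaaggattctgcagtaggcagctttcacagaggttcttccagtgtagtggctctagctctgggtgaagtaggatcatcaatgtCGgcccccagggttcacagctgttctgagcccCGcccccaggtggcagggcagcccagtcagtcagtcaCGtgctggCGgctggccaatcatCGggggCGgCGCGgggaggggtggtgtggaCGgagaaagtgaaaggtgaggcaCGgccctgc
SLC35D1: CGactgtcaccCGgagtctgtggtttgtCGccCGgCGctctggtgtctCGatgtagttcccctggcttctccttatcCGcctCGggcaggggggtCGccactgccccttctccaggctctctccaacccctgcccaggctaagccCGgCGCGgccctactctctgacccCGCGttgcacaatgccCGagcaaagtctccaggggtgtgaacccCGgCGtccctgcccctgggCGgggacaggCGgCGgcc
The CG dinucleotide, which reads the same on both strands, occurred 24 times before SLC35D3, 38 times before UXS1, 10 times before GALT and 20 times before SLC35D1. All 9 genes had an entry, with 10 to 38 CG dinucleotides, and the median of the 35116 windows of that length was 11. The windows not shown held 25 for UGP2, 10 for UGDH, 21 for GALK1, 13 for SLC35A2 and 19 for SLC35D2. A relation between the number of CG and the change was not tested. A CG was present in 93.9% of the 35116 windows. At least as many were found in 3.28% of windows for UXS1, in 23.7% for SLC35D3, in 32.4% for SLC35D1 and in 52.2% for GALT. The UXS1 window is the outermost of 3 starts in the table. No methylation was measured, so the letters describe the windows and not their state in these cells.

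**Figure D1:**
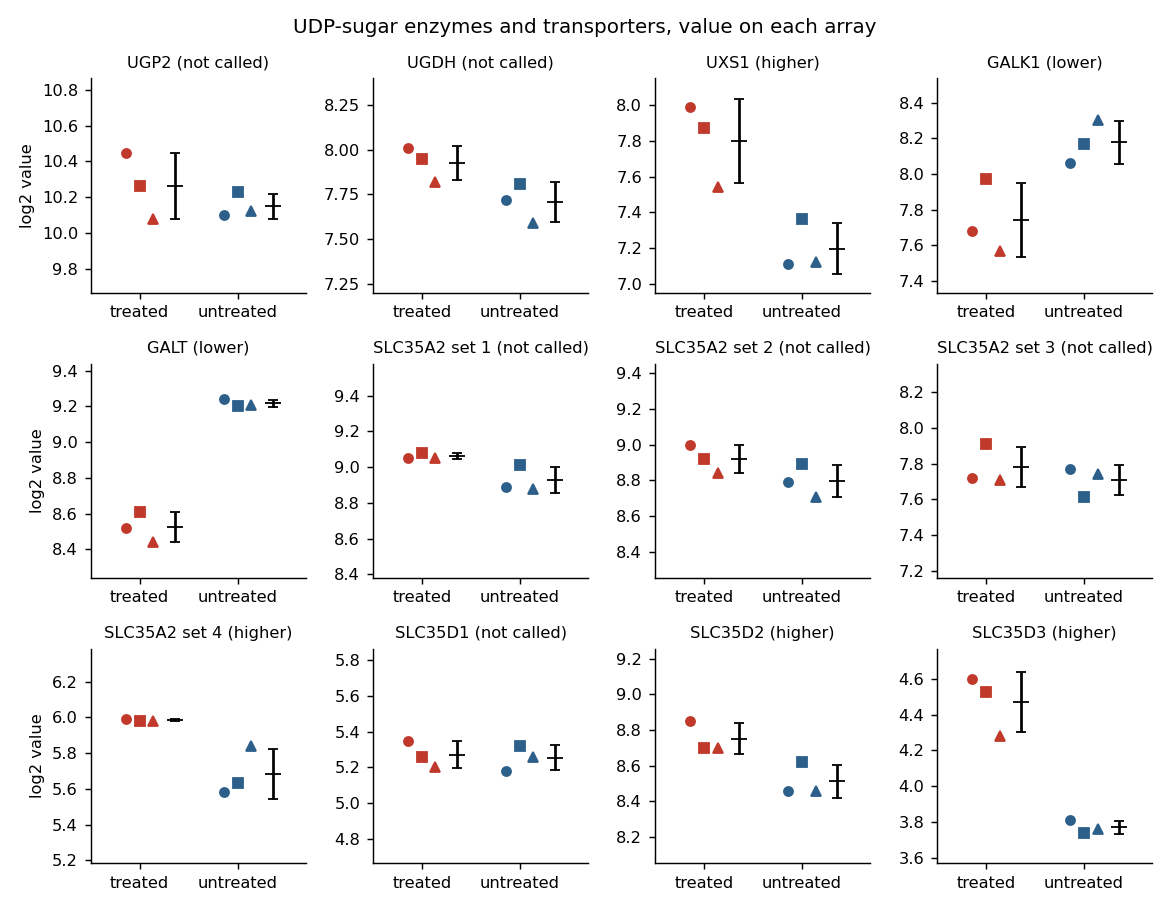
Log2 value of each of the 12 probe sets on every array, with treated cells in red on the left and untreated cells in blue on the right; circles, squares and triangles mark replicates 1, 2 and 3, black bars give the mean and SD, and every panel spans the same range of log2 units. The groups stand clearly apart for GALT (8.44 to 8.61 treated, 9.20 to 9.24 untreated) and SLC35D3 (4.28 to 4.60 treated, 3.74 to 3.81 untreated), and overlap for UGP2 and SLC35D1.

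Along the route from UDP-glucose to UDP-xylose the last enzyme rose and the enzymes before it were not called. UGP2, the UDP-glucose pyrophosphorylase, had values of 10.45, 10.26 and 10.08 in treated cells and 10.10, 10.23 and 10.12 in untreated cells. The groups overlapped, and treated replicate 3 lay below every untreated array. The change was 0.11 ± 0.10 (SE, 3 arrays per group; 95% interval -0.10 to 0.33), with an adjusted p of 0.427 in limma's test. The ending of this probe set's name, by the usual Affymetrix convention, marks a set that can hybridise with transcripts of several genes. Its values are therefore less certain. The same holds for the sets of SLC35F5, SLC35E4, UGGT2 and LRIF1 named below, which have the same ending.

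UGDH, the UDP-glucose dehydrogenase, had 8.01, 7.95 and 7.82 in treated cells and 7.72, 7.81 and 7.59 in untreated cells. All 3 treated values were above all 3 untreated values, although the lowest treated and the highest untreated value were only 0.01 apart. The change of 0.22 ± 0.08 was not called (limma, adjusted p = 0.068; 95% interval 0.03 to 0.40). It passed without treated replicate 3 (0.27, adjusted p = 0.0368) and after quantile normalization (0.28, adjusted p = 0.0168).

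UXS1, the UDP-xylose synthase, had 7.99, 7.87 and 7.54 in treated cells and 7.11, 7.36 and 7.12 in untreated cells. Treated cells were higher on every array, and treated replicate 3 came closest to the untreated values. The mean was 7.80 ± 0.23 in treated cells and 7.20 ± 0.14 in untreated cells (SD, n = 3 each), a change of 0.60 ± 0.12 (SE; limma, adjusted p = 0.00226) or 1.51-fold, with a 95% interval of 1.26-fold to 1.81-fold. It ranked 98 among the rises of the 1259 probe sets. A test with no variance shared between probe sets gave an adjusted p of 0.0645.

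Both measured genes of galactose entry fell. GALK1, the galactokinase, had 7.68, 7.97 and 7.57 in treated cells and 8.06, 8.17 and 8.30 in untreated cells. Every treated value was below every untreated value, the nearest pair lying 0.096 apart. The change was -0.43 ± 0.11, a fall to 74.0% of the untreated level (limma, adjusted p = 0.00826; 95% interval 62.9% to 87.1%). With no shared variance the adjusted p was 0.0956.

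GALT, the galactose-1-phosphate uridylyltransferase, had 8.52, 8.61 and 8.44 in treated cells and 9.24, 9.20 and 9.21 in untreated cells. The groups were 0.591 apart at their nearest, and the untreated arrays agreed within an SD of 0.022. The change was -0.69 ± 0.07 (limma, adjusted p = 2.7e-05; 95% interval -0.85 to -0.53), which ranked 48 among the falls. It was called on the deposited values and in all 12 alternative fits.

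SLC35A2, the Golgi UDP-galactose transporter, was read by 4 probe sets, 3 of which were not called. The brightest (NM_001042498.2_psr1_a_at) had 9.05, 9.08 and 9.05 in treated cells and 8.89, 9.01 and 8.88 in untreated cells, a change of 0.14 ± 0.07 (limma, adjusted p = 0.165). Its groups did not overlap, and after quantile normalization it was called (0.185, adjusted p = 0.0366). The set NM_001032289.1_psr1_a_at had a difference of 0.13 ± 0.08 (adjusted p = 0.257) and NM_005660.1_psr1_a_at one of 0.07 ± 0.08 (adjusted p = 0.583), both with overlapping groups.

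The dimmest SLC35A2 set (NM_005660.1_psr1_at) had 5.99, 5.98 and 5.98 in treated cells and 5.58, 5.63 and 5.84 in untreated cells. It rose by 0.30 ± 0.08 or 1.23-fold (limma, adjusted p = 0.013), and the treated arrays were nearly equal while untreated replicate 3 lay above the other untreated arrays. It was not called without untreated replicate 1 (adjusted p = 0.0571), without untreated replicate 2 (adjusted p = 0.0558) or with no variance shared between probe sets (adjusted p = 0.0636). By the naming convention, the endings of the other 3 sets mark them as matching several transcripts of 1 gene, and the difference between the sets was not tested.

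The SLC35D transporters ranged from no called change to the largest rise of all members. SLC35D1, which carries UDP-glucuronate and UDP-N-acetylgalactosamine into the endoplasmic reticulum, had 5.35, 5.26 and 5.20 in treated cells and 5.18, 5.32 and 5.26 in untreated cells. The values interleaved. The change was 0.02 ± 0.07 (limma, adjusted p = 0.909), and the 95% interval ran from 0.90-fold to 1.13-fold.

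SLC35D2, a Golgi transporter for which UDP-N-acetylglucosamine is a known substrate, had 8.85, 8.70 and 8.70 in treated cells and 8.46, 8.62 and 8.46 in untreated cells. The groups did not overlap, with the nearest values 0.07 apart. The change of 0.23 ± 0.08 or 1.18-fold was called (limma, adjusted p = 0.042). The call was lost without untreated replicate 3, the array with the conflicting title (adjusted p = 0.113), and without treated replicate 1 (0.172), treated replicate 2 (0.0635) or untreated replicate 1 (0.123). It was also lost after median centring (0.15).

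SLC35D3, a family member known from mice with a platelet dense granule defect, had 4.60, 4.53 and 4.28 in treated cells and 3.81, 3.74 and 3.76 in untreated cells. The groups were 0.468 apart at their nearest, and the treated arrays spread more widely (SD 0.171) than the untreated ones (SD 0.037). The rise was 0.70 ± 0.09 or 1.63-fold (limma, adjusted p = 0.000123; 95% interval 1.42-fold to 1.87-fold), rank 81 among all rises. This is a dim probe set: 21.5% of all probe sets were as dim or dimmer on average, and without detection calls its untreated level cannot be set against background. It was called in all 11 alternatives that kept it.

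**Figure D2:**
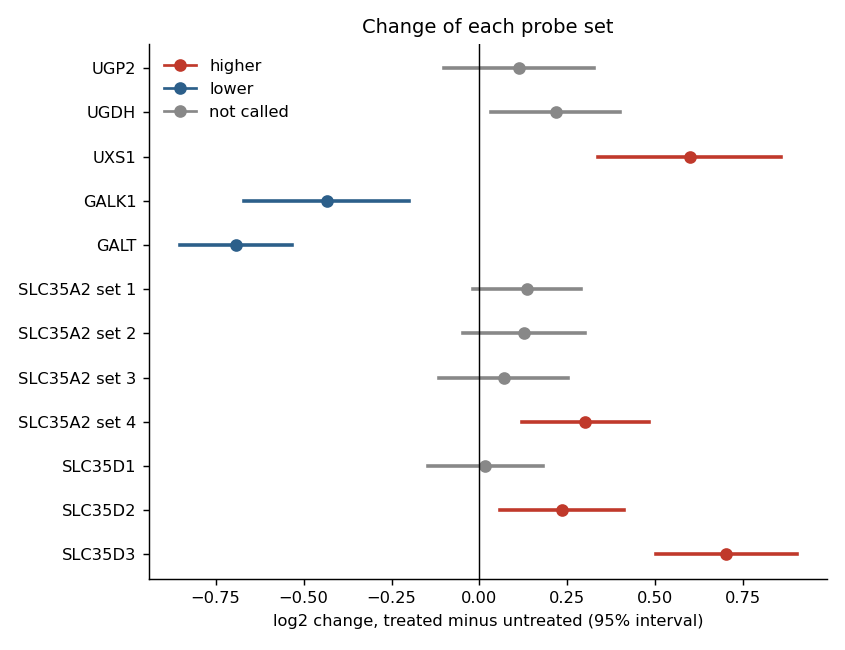
Log2 change of each of the 12 probe sets, treated minus untreated, as points with the 95% interval of limma's fit, coloured by call; SLC35A2 sets are numbered from the brightest. UXS1 (0.60) and SLC35D3 (0.70) lie farthest to the right, GALT (-0.69) and GALK1 (-0.43) to the left, and SLC35D1 (0.02) at 0.

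**Figure D3:**
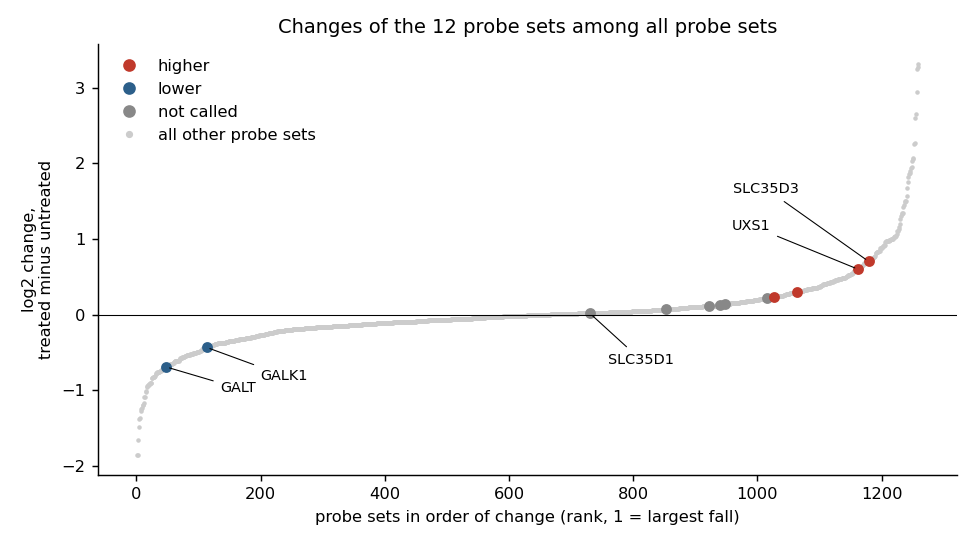
All 1259 probe sets in order of log2 change, treated minus untreated, with the 12 UDP-sugar probe sets as larger points coloured by call. Changes over the array run from -1.86 to 3.32, and SLC35D3 (0.70) and GALT (-0.69) lie on the bends of the curve, short of its ends.

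Whether neighbouring members changed by different amounts was tested on the within-array difference of their log2 values, in 7 pairs. With 3 arrays against 3, the exact two-sided permutation test cannot go below 0.1, and no pair could pass 0.05. UXS1 minus UGDH shifted by 0.38 ± 0.10 (SE), with differences of -0.02, -0.08 and -0.28 in treated cells and -0.61, -0.44 and -0.47 in untreated cells. The groups did not overlap (exact permutation p = 0.1, adjusted 0.14 over the 7 pairs). SLC35D3 shifted by 0.69 ± 0.09 relative to SLC35D1 and by 0.47 ± 0.10 relative to SLC35D2, and SLC35D2 by 0.22 ± 0.04 relative to SLC35D1, each with groups that did not overlap and the same exact p. GALT shifted by -0.26 ± 0.10 relative to GALK1, again without overlap and with the same exact p. UGDH relative to UGP2 shifted by 0.10 ± 0.07 (exact permutation p = 0.3) and SLC35A2 relative to SLC35D1 by 0.12 ± 0.05 (exact permutation p = 0.2), with overlapping groups.

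Around the members, 23 other genes of nucleotide sugar supply were measured, of which 6 rose (26.1%) and 11 fell (47.8%), against 18% and 16.8% of all probe sets. Their median change was -0.26, against -0.012 over all probe sets. These genes were brighter than the array, with a median untreated level of 8.98 against 5.84, so the shares compare unlike levels. Without the dim probe sets, 168 of 839 were called higher and 192 lower, and 6 and 10 in this list. The lists below also had higher median levels than all probe sets. GFPT2, an isoform of the enzyme that commits fructose 6-phosphate to hexosamines, rose 4.78-fold (2.26 ± 0.12; limma, adjusted p = 1.94e-07). MPI, the isomerase that makes mannose 6-phosphate, fell to 58.9% of the untreated level (-0.77 ± 0.07; adjusted p = 7.51e-06). PGM1 and UAP1, which act close to the members in the pathway, were chosen after their values were seen. PGM1, which makes the glucose 1-phosphate that UGP2 uses, averaged 9.67 in treated cells and 10.38 in untreated cells and fell by 0.71 ± 0.07 (adjusted p = 1.28e-05). UAP1, which makes UDP-N-acetylglucosamine, rose by 0.47 ± 0.08 (adjusted p = 0.000782).

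Among 17 other SLC35 genes 2 rose (11.8%) and 5 fell (29.4%), against 18% and 16.8% of all probe sets, with a median change of -0.10. The falls numbered 8 after median centring, 3 after quantile normalization and 3 without untreated replicate 2. SLC35A5 fell to 66.8% of the untreated level (-0.58 ± 0.09; limma, adjusted p = 0.00057). SLC35B2, a transporter of the sulfate donor PAPS, fell to 71.5% (-0.48 ± 0.09; adjusted p = 0.00104). The 2 rises, named after their values were seen, were SLC35F5 (0.70 ± 0.16) and SLC35E4 (0.37 ± 0.10). SLC35B4, a transporter of UDP-xylose and UDP-N-acetylglucosamine also named after its values were seen, averaged 4.92 in treated cells and 5.27 in untreated cells (-0.35 ± 0.12; adjusted p = 0.0401). Its call was lost without treated replicate 1 (0.139), treated replicate 2 (0.149), untreated replicate 1 (0.116) or untreated replicate 2 (0.108). It was also lost after quantile normalization (0.0547), with no shared variance (0.203) and with the replicate number as a block (0.116).

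Of 19 transferases of glycosaminoglycan and matriglycan chains, most of which use UDP-xylose or UDP-glucuronate, 3 rose (15.8%) and 2 fell (10.5%), both below the shares of 18% and 16.8% over all probe sets. Their median change was -0.03. HAS3, a hyaluronan synthase, rose 3.54-fold (1.82 ± 0.12; limma, adjusted p = 1.23e-06), and CHSY1, a chondroitin synthase, 1.58-fold (0.66 ± 0.09; adjusted p = 0.000124). HAS1 (0.62 ± 0.10), another hyaluronan synthase, was the third rise. The falls were XYLT2 (-0.26 ± 0.07), which transfers xylose from UDP-xylose to proteoglycan cores, and B3GAT3 (-0.27 ± 0.09), which adds the glucuronate of the linkage region; these 3 genes were named after their values were seen. The number of falls was 0 without treated replicate 1 or without untreated replicate 2, 1 without treated replicate 2 or without untreated replicate 1, and 4 without untreated replicate 3. With all probe sets of the 19 genes counted, 3 were called higher and 3 lower. HAS3 has 2 probe sets, and the dimmer was not among the higher calls.

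Of 16 galactosyltransferases and close relatives, nearly all users of UDP-galactose, 3 rose (18.8%, near the 18% of all probe sets) and 5 fell (31.2%, against 16.8%), with a median change of -0.10. B3GALT6, which adds a galactose of the proteoglycan linkage region, was 1.71-fold lower (-0.78 ± 0.09; limma, adjusted p = 4.88e-05), and B3GALT4, a ganglioside galactosyltransferase, 1.67-fold lower (-0.74 ± 0.09; adjusted p = 8.05e-05). Of 3 measured transferases that use UDP-glucose 1 rose and 1 fell. UGCG, glucosylceramide synthase, rose 1.51-fold (0.60 ± 0.10; adjusted p = 0.000672). ALG5, which makes dolichyl-phosphate glucose, was 1.30-fold lower (-0.38 ± 0.08; adjusted p = 0.00277). UGGT2, a glucosyltransferase of glycoprotein folding control named after its values were seen, had a difference of 0.18 ± 0.13 (adjusted p = 0.326).

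**Figure D4:**
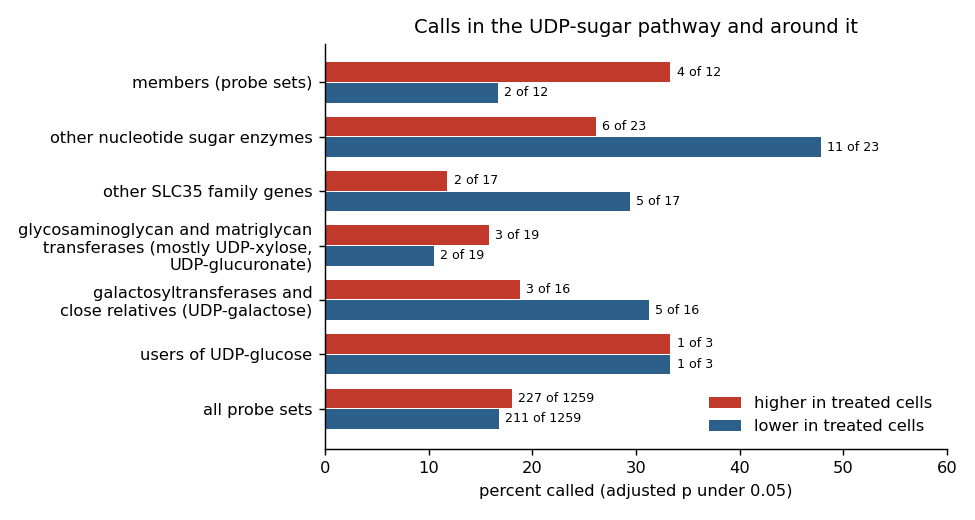
Percent of probe sets called higher (red) or lower (blue) in treated cells, for the 12 UDP-sugar probe sets, for 5 lists of other genes of the pathway counted by gene, and for all probe sets; the labels give the counts. All probe sets stand at 18% higher and 16.8% lower, and other nucleotide sugar enzymes at 26.1% higher and 47.8% lower.

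The genes most like SLC35D3 and GALT over the 6 arrays were found by the root mean square difference between values after each gene's own mean was subtracted. IFNGR1 (0.066) and LRIF1 (0.085) were nearest to SLC35D3 among 926 genes, whose median difference was 0.386. IFNGR1 averaged 9.73 in treated cells and 9.09 in untreated cells, and LRIF1 6.82 in treated cells and 6.15 in untreated cells. PDGFC (0.035) and MPI (0.058) were nearest to GALT, against a median of 0.359. PDGFC averaged 5.70 in treated cells and 6.44 in untreated cells, and MPI 7.87 in treated cells and 8.63 in untreated cells. The measure includes the difference between the groups of 3 arrays as well as the spread within them.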

How the data were processed

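RNA was biotinylated by the Affymetrix protocol, per the labels' protocols. A single table of log2 values for 6 arrays and 1259 probe sets was deposited. RMA is named per the submitters' processing notes, while no source used here gives its settings, the platform or a build. The log2 scale was read from the values, which run between 2.13 and 13.67. RMA shrinks differences at low signal and makes the arrays' distributions alike. The number of value columns left unused was 0. No detection calls were used, and the number of arrays limits the precision.

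Probe sets were named through the RefSeq transcript in their names (GRCh38.p14 table): 1043 matched 1 symbol and 216 stayed unnamed. For a gene with several sets, the brightest stood for it in lists and pairs. Window sequences are RefSeq's.

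limma 3.58.1 in R 4.3.3 fitted 1 treatment term to all 6 arrays (lmFit, eBayes, two-sided, Benjamini-Hochberg over 1259). On simulated arrays of treated against untreated cells with 1259 probe sets, 100 of 100 changed by 0.585 and 100 of 100 changed by 1 were called, with 9 false calls. The simulated noise was independent between arrays, with variances from the fit itself. No change below 0.585 was simulated, so smaller changes, such as those of GALK1, SLC35A2 and SLC35D2, were not covered. The members, the 5 pathway lists, the 3 marker lists and the alternatives were chosen with earlier results of these data known. Named were all member probe sets, in each list the 2 called genes of smallest p, and the 2 genes nearest to the largest called rise and fall; others are marked as chosen after their values were seen. Alternatives were quantile normalization, median centring, leaving out dim probe sets (839 kept, mean level at least 4.90), an intensity trend, no shared variance, a replicate block, leaving out each array, an adjusted p under 0.01, and a 1.5-fold minimum. The value of 1 listed gene is not reported here.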

Additional observations from a re-analysis of the deposited data

How the results depend on the processing

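The count of higher calls among the 12 probe sets was 4, and it was 6 after quantile normalization, 3 after median centring, 3 without the dim probe sets, which drops SLC35D3, 1 with no shared variance, 2 at an adjusted p under 0.01 and 2 at 1.5-fold or more. The count of lower calls was 2, and it was 1 with no shared variance and 1 at 1.5-fold or more. Leaving out 1 array gave 2 to 5 higher and 2 lower calls, with 2 higher calls without untreated replicate 1. Over all probe sets 227 were higher and 211 lower, and at 1.5-fold or more 100 and 69. Same-numbered treated and untreated arrays deviated from their group means with correlations of -0.274, 0.037 and -0.111, so the numbers were not taken to pair the arrays. Correlations between differently numbered arrays ran from -0.328 to 0.422. The highest were for treated replicate 3 with untreated replicate 1 (0.422) and treated replicate 1 with untreated replicate 2 (0.413). A link between arrays under other numbers was not tested, and the block below follows the numbers. With the replicate number as a block, 3 of the 12 were called higher and 2 lower, against 209 higher and 185 lower over all probe sets. The shift of SLC35D3 relative to SLC35D2 was 0.326 after quantile normalization, against 0.468 on the deposited values.

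GALT was called in all 12 alternatives, with a change between -0.76 and -0.65, and SLC35D3 in all 11 that kept it, with 0.594 to 0.799. UXS1 and GALK1 kept their direction in all 12, with 0.504 to 0.728 and -0.547 to -0.35. Among these 12 fits both lost the call only with no shared variance. GALK1, 1.35-fold lower, also fell short of the 1.5-fold minimum. SLC35D2 was also not called with an intensity trend (adjusted p = 0.0697), with no shared variance (0.101) or with the replicate block (0.0861), in a range from 0.0168 to 0.172. SLC35D1 was below 0 after median centring (-0.05), without treated replicate 1 (-0.022) and without untreated replicate 1 (-0.02), and was called in none of the 12. Among lists, 2 other nucleotide sugar enzymes were called higher with no shared variance, and 1 higher and 4 lower at 1.5-fold or more. Of the other SLC35 genes 0 were higher and 2 lower with no shared variance, 1 was higher and 3 lower at an adjusted p under 0.01, and 1 was higher and 0 lower at 1.5-fold or more. Of the 19 transferases of glycosaminoglycan and matriglycan chains 1 was lower with no shared variance and 1 with the block, and 0 at an adjusted p under 0.01 or at 1.5-fold. Of the 16 galactosyltransferases and relatives 1 was higher at an adjusted p under 0.01 and 1 at 1.5-fold, where 2 were lower, and of the users of UDP-glucose 0 were lower at 1.5-fold. The PECAM1 call was lost in 6 alternatives (adjusted p 0.0142 to 0.173 over all settings), the CD22 call without untreated replicate 2 (0.0527). Causes were not tested. The lack of background measurements limits statements on dim sets such as SLC35D3.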

Other observations

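Treated replicate 3 held the lowest of the 3 treated values in 10 of the 12 probe sets of UDP-sugar genes, among them UGP2, UGDH, UXS1, GALK1, GALT, SLC35D1, SLC35D2 and SLC35D3, whereas it was the lowest treated array in 35.7% of all probe sets. Treated replicate 1 held the highest value in 8 of the 12, against 28.0% of all probe sets. The median deviation from the treated mean was -0.082 over the 12 probe sets on treated replicate 3 and 0.01 over all probe sets on that array. Among untreated arrays, replicate 2 was highest in 7 of the 12, against 31.8% of all probe sets. Without treated replicate 3 the change of UXS1 was 0.728, against 0.599 with all arrays, that of SLC35D3 0.799, against 0.702, and that of GALK1 -0.35, against -0.434. The 4 SLC35A2 sets read 1 gene, so the 12 are not independent, and this pattern was noticed in the data and not tested.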
